A study of Mus musculus with 12 samples.

Results

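Whether the brain transcriptome of a memantine-treated Shank2-mutant mouse lies where that of an untreated WT mouse lies was examined by setting 3 memantine-treated mutants (KO-Mem) against 3 vehicle-treated WT mice (WT-Veh), the KO-M/WT-V transcripts. The genes compared were those with a mean of at least 10 normalized counts over these 6 mice, which left 17662 of the 19312 genes in the table, from 6 of the 12 mice of the series. All 12 mice were C57BL/6N males taken at postnatal day 25. The mutants lack exons 6 and 7 of Shank2 in the whole animal (Shank2-KO), and the WT mice carry the intact gene. KO-Mem mice received 20 mg/kg memantine in 0.1% saccharin orally, in 2 daily treatments between postnatal days 7 and 21, and WT-Veh mice received saccharin alone on the same days. The other 6 mice were vehicle-treated mutants (KO-Veh) and memantine-treated WT mice (WT-Mem). Sampling therefore followed the end of treatment, so a KO-Mem value is that of a mouse off the drug, and it holds the deletion and the earlier treatment together. The sample labels give whole brain, whereas the study's methods give forebrain with the cerebellum and brain stem removed. Glutamatergic neuron markers (Slc17a7 from 34249 to 42294 normalized counts in the 6 mice) and GABAergic neuron markers (Gad1 from 9230 to 10212) were present in all 6 mice. Markers of the removed parts were low: the cerebellar granule and Purkinje cell genes Cbln3 and Pcp2 lay between 7.69 and 65 in these mice, and of 10 brain stem and spinal markers 3 were in the table (Slc6a5, Dbh and Tph2), with 0 called by limma and 0 at an unadjusted p under 0.05. WT-Veh 3 was the highest of the 6 mice for Cbln3 (11.3, 11.6 and 65 in WT-Veh and 29.9, 43.3 and 27 in KO-Mem mice), for Slc6a5 (16.6, 23.4 and 85.6 in WT-Veh against 23, 35.2 and 16.2 in KO-Mem mice) and for Tph2 (66.2, 92.7 and 229.8 in WT-Veh against 16.7, 90.8 and 116 in KO-Mem mice), but not for Dbh (14.3, 5.21 and 16.1 in WT-Veh against 18.9, 17.4 and 13.8 in KO-Mem mice).

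Shank2 is a scaffold protein of the postsynaptic density of excitatory synapses, where it links glutamate receptors and their partners to the actin cytoskeleton. Memantine is an open-channel blocker of NMDA receptors, the glutamate receptors that admit calcium. The treatment window covers the weeks in which the mouse forebrain is myelinated: oligodendrocytes wrap axons in a membrane rich in cholesterol, galactosylceramide and a small number of very abundant proteins, and make most of that cholesterol themselves.

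Shank2 itself (ENSMUSG00000037541, chr7:144001928-144424494, plus strand of GRCm38) stood at 2817, 2706 and 3178 normalized counts in KO-Mem and 8248, 7427 and 8325 in WT-Veh mice. Every KO-Mem value lay below every WT-Veh value, and the KO-Veh values of 3053, 3006 and 2723 lay in the range of the treated mutants. Its change in KO-M/WT-V transcripts was -1.47 on the log2 scale (SE 0.08, adjusted p = 7.01e-05, limma with Benjamini-Hochberg adjustment). The gene-level value counts all exons, so it checks the labels and does not measure the deleted exons or the protein.

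In KO-M/WT-V transcripts 595 of the 17662 genes (3.37%) passed an adjusted p of 0.05 in limma and are called below, of which 233 (1.32%) were higher and 362 (2.05%) lower in KO-Mem mice. All 595 had 3 KO-Mem values on one side of 3 WT-Veh values, as did 5493 (31.1%) of all genes tested, and 4566 (25.9%) had an unadjusted p under 0.05. The counts of list members given below are to be read beside these shares. The median log2 fold change was 0.57 over the genes called higher and -0.63 over those called lower, and 54 and 72 of them were past 1 on that scale. Of the genes called higher, 38 (16.3%) were not protein-coding, against 16 (4.42%) of those called lower and 14.8% of all genes tested.

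The number of calls depended on single mice. Without KO-Mem 1 or without KO-Mem 2 the number called was 1, without WT-Veh 2 it was 3, without WT-Veh 3 it was 4, without WT-Veh 1 it was 54, and without KO-Mem 3 it was 2490. Shank2 was the one gene of the 595 called in all 6 of these fits, Gm26793 was called in 4 and Gm14820 in 3, while 41 genes were called in 2, 550 in 1 and 1 in none. Without KO-Mem 1 the call left was that of Shank2, so none of the gene lists described below kept another called member in that fit. The groups did not overlap for any of the 595, which fixes the sign of each in all 6 fits. With a variance prior that does not depend on the mean, 7 genes were called. The calls named below are therefore those of the fit to all 6 mice, with the values of the mice beside the main ones, always in the order of replicates 1, 2 and 3. A signed number after a gene is its log2 fold change, KO-Mem minus WT-Veh.

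The mice differed in how far they lay from the other group. On the first principal component of the 6 mice, which held 42.6% of their variance over the 17662 genes, KO-Mem 1, 2 and 3 lay at 47.8, 30.3 and 1.68, and WT-Veh 1, 2 and 3 at -16.7, -28.9 and -34.1. KO-Mem 3 was the KO-Mem mouse nearest to the WT-Veh mean for 199 (85.4%) of the genes called higher and 306 (84.5%) of those called lower, and for 9683 (54.8%) of all genes tested. Of the other 6 mice, which had no part in defining the axis, the WT-Mem mice lay at -11.5, -11 and -13.2, between both groups, and the KO-Veh mice at 3.22, -4.96 and 13, so KO-Veh 1 and 3 lay farther from WT-Veh than KO-Mem 3 did. An axis fitted to 6 mice also holds their own spread, so mice left out of it tend towards its middle. No state is therefore read from the positions of the WT-Mem and KO-Veh mice. WT-Veh 3 had the largest share of its normalized counts in its 10 highest genes (6.1%, against 4.37% to 5.04% in the other 5 mice), led by the mitochondrial gene mt-Co1. The values are normalized, and the reads per mouse are not given in the sources used here, so the depth of each mouse is unknown.

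**Figure D1:**
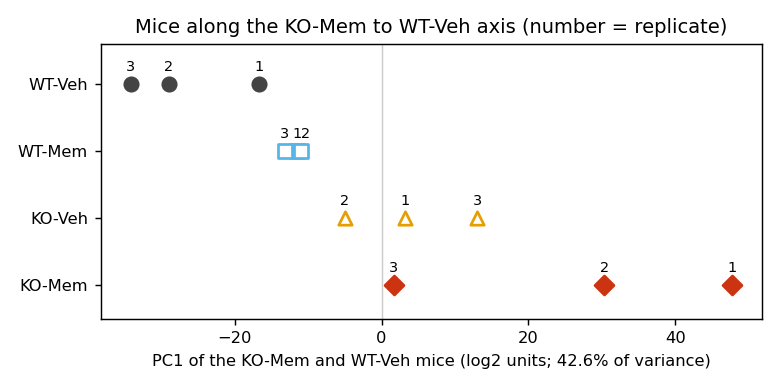
Position of each mouse on the first principal component (PC1, in log2 units, 42.6% of variance) of the 3 KO-Mem and 3 WT-Veh mice. Filled points are the mice that define the axis and open points are WT-Mem and KO-Veh mice projected on it. KO-Mem 3 lies at 1.68, within the span of the KO-Veh mice, and KO-Mem 1 at 47.8.

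The genes with the smallest p that were higher in KO-Mem mice included 2 noncoding gene models that were almost absent from WT-Veh mice. Gm26793 (ENSMUSG00000096999, chr7:144894560-144897461, minus strand) lies close to Shank2 on chromosome 7 and had 3.09, 2.11 and 3.89 normalized counts in WT-Veh and 52.8, 58.7 and 49 in KO-Mem mice, a change of 3.78 on the log2 scale (SE 0.36, adjusted p = 0.00807, limma). Gm14820, on the X chromosome, was listed at 0, 0 and 0.84 in WT-Veh and 26.1, 24.1 and 33.2 in KO-Mem mice. KO-Veh mice had 47.6, 45.6 and 43.2 for Gm26793 and 46.9, 17.9 and 33.3 for Gm14820, so both were also present in mutants that had no memantine. For Gm14820 WT-Mem 1, at 29.7, lay in the mutant range. Both models are annotated as antisense to other genes, and the counting is not stated to use strand, so reads of the opposite strand cannot be told apart.

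Wnt10b (ENSMUSG00000022996, chr15:98770712-98778150, minus strand), which encodes a secreted Wnt ligand, showed a graded pattern over the groups. Its normalized counts were 194, 142 and 155 in KO-Mem mice, beside 86.5, 90.2 and 88.2 for KO-Veh, 34.6, 44.4 and 61.8 for WT-Mem and 50.2, 27 and 32.6 for WT-Veh mice. All 3 KO-Mem values lay above all 9 others, and the log2 fold change against WT-Veh was 2.17 (SE 0.25, adjusted p = 0.0222, limma). Of the 53 Wnt pathway genes tested, 1 other was called, Ccnd1 (cyclin D1), at 1247, 1618 and 1237 in WT-Veh and 618, 760.1 and 743 in KO-Mem mice (log2 fold change -0.95). The median of the list was 0.01, beside a median of 0.00 over all genes tested.

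Lcn2, which encodes the iron-scavenging acute-phase protein lipocalin 2, separated KO-Mem mice from every other group. It had 46.6, 48.7 and 44.8 normalized counts in KO-Mem mice, beside 5.07, 3.49 and 19.5 for KO-Veh, 16.4, 9.82 and 7.14 for WT-Mem and 6.78, 8.48 and 10.2 for WT-Veh mice, a change of 2.35 on the log2 scale against WT-Veh (SE 0.31, adjusted p = 0.0222, limma). Taf9, a subunit of the general transcription factor TFIID, had 268, 208 and 235 in WT-Veh and 585, 514 and 443 in KO-Mem mice, a change of 1.11 on the log2 scale (SE 0.14). The other genes with the smallest p that were called higher had log2 fold changes from 0.54 to 2.82. They were Hrk, a proapoptotic BH3-only protein (0.54), Pip5k1a, a kinase that makes phosphatidylinositol 4,5-bisphosphate (0.58), the transcription factor Deaf1 (0.73), Rad18, a ubiquitin ligase of DNA damage tolerance (1.05), the phospholipase gene Pla2g4e (1.24), the clathrin adaptor subunit Ap1g2 (0.97), Zgrf1 (0.84), and the noncoding models Gm5914 (2.82), Gm42890 (1.55) and Lrp8os2 (1.26).

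Several of the genes called lower with the smallest p are known from glia or from the axon-glia contact. Cmtm5, a MARVEL-domain membrane protein enriched in oligodendrocytes, had 1384, 1586 and 1576 normalized counts in WT-Veh and 687, 722 and 931 in KO-Mem mice, a change of -0.97 on the log2 scale (SE 0.12, adjusted p = 0.0222, limma). Aqp4, the water channel of astrocyte endfeet, had 3875, 4690.4 and 4209 in WT-Veh against 2036, 2148 and 2826 in KO-Mem mice (log2 fold change -0.88), and Cntn2, an adhesion protein of the juxtaparanode, had 5672, 5865 and 5850.1 in WT-Veh against 3988, 3877 and 4482 in KO-Mem mice (-0.50). The groups overlapped for none of these genes, which holds for every called gene. KO-Mem 3 was the KO-Mem mouse closest to WT-Veh for all 3, as for 84.5% of the genes called lower.

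The largest falls among the genes with the smallest p were those of Abhd12b and Tnfrsf25, the death receptor DR3. Abhd12b, an abhydrolase, had 21.5, 14.9 and 43.4 normalized counts in KO-Mem, 147, 143 and 153 in WT-Veh and 48.2, 74.7 and 46.7 in KO-Veh mice, so its log2 fold change was -2.56 (SE 0.33). Tnfrsf25 had 50.1, 61.7 and 104, then 243, 255 and 261, then 222, 143 and 88.5 in the same groups (-1.87, SE 0.24). The others were Inf2, an actin-polymerizing formin (-0.59), Col9a3, a collagen chain (-0.78), Tmem88b (-0.83), Prr5l (-1.06), Rmnd1, which serves mitochondrial translation (-0.71), the keratin Krt80 (-1.28), the integrin subunit Itgb4 (-1.11) and the carbonic anhydrase Car15 (-1.15), besides Ccnd1 and Cnp.

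**Figure D2:**
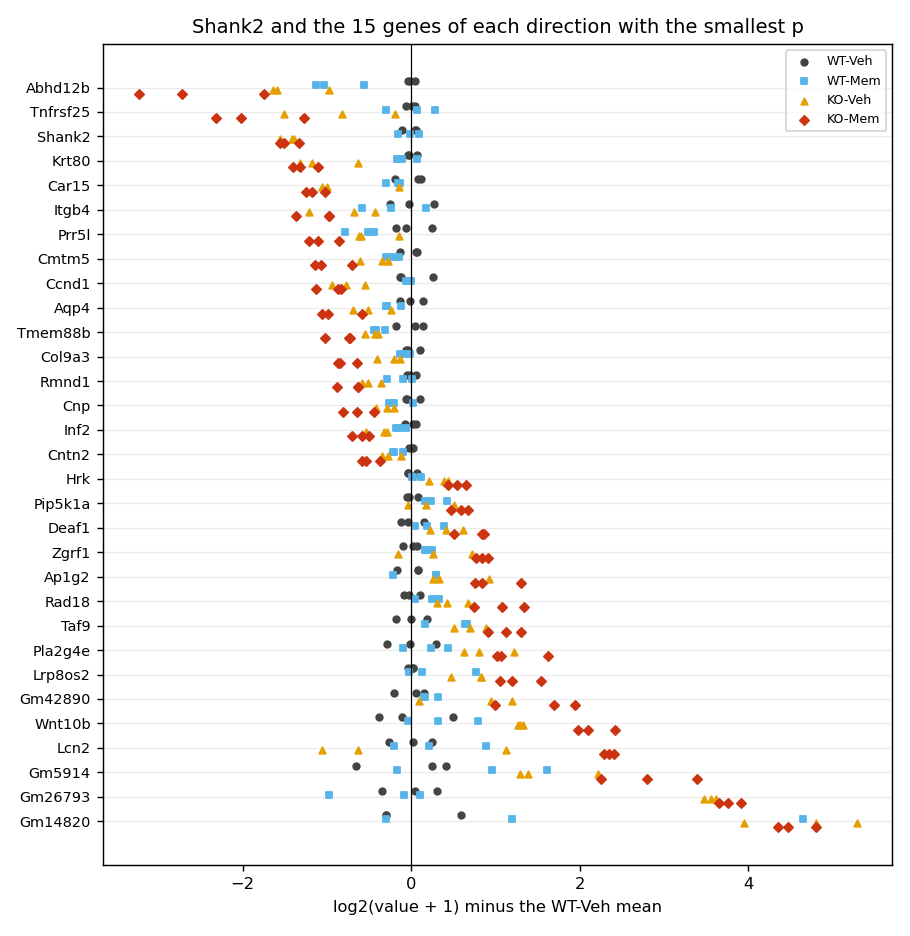
Values of Shank2 and of the 15 genes of each direction with the smallest p, per mouse, as log2(value + 1) minus the WT-Veh mean. Each point is 1 mouse, with black circles for WT-Veh, blue squares for WT-Mem, orange triangles for KO-Veh and red diamonds for KO-Mem. The red diamonds lie on one side of the black circles for every gene, from a mean of -2.56 for Abhd12b to 4.54 for Gm14820.

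The most uniform group of genes was that of mature oligodendrocytes. All 12 oligodendrocyte and myelin markers were lower in KO-Mem than in WT-Veh mice with no overlap between the groups, beside 31.1% of all genes tested without overlap. Of the 12, 9 were called lower, beside 2.05% of all genes tested, and 0 higher. The median log2 fold change of the list was -0.50, and its range was -0.54 to -0.45 over the 6 fits that leave out 1 mouse. The summed normalized count of the list was 66.4%, 73% and 78.4% of the WT-Veh mean in KO-Mem 1, 2 and 3, and 94.5%, 92.8% and 113% in the WT-Veh mice. In a bulk sample, fewer cells of a type and less RNA per cell cannot be told apart.

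Ugt8a, the enzyme that makes galactosylceramide, had the largest called fall of the list (-1.02, SE 0.20, adjusted p = 0.0332, limma), with 4759, 5138 and 4663 normalized counts in WT-Veh and 1701, 2286 and 3483 in KO-Mem mice. The highest KO-Mem value lay below the lowest WT-Veh value, as for every gene called lower. Mog, a protein of the outermost myelin layer, had 4194, 3823 and 5141 in WT-Veh against 2392, 2529 and 3261 in KO-Mem mice (-0.69), and Mag, the adhesion protein of the layer that faces the axon, had 12788, 12591 and 14094 in WT-Veh against 8762, 9176 and 10034 in KO-Mem mice (-0.50).

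Cnp, a phosphodiesterase of noncompact myelin, had 21980, 21891 and 24464 normalized counts in WT-Veh and 13012, 14523 and 16753 in KO-Mem mice (-0.63, SE 0.09, adjusted p = 0.0243, limma). Called members also included Opalin (-0.51), Mobp (-0.46), the tight junction protein Cldn11 (-0.40) and Mal (-0.31). The 3 members that were not called were Ermn, at 2014, 2098 and 2128 in WT-Veh against 610.0, 1175 and 1457 in KO-Mem mice (adjusted p = 0.0502, limma), Mbp, at 138110, 138160 and 181570 in WT-Veh against 108060, 120810 and 122930 in KO-Mem mice (adjusted p = 0.0756, limma), and Aspa, at 529, 650.3 and 554 in WT-Veh against 366, 488 and 452 in KO-Mem mice (adjusted p = 0.0929, limma). WT-Veh 3, the highest mouse for 2 of the 3 brain stem markers, also had the highest Mbp value, far above those of WT-Veh 1 and 2. Without it, the median of the list was -0.45.

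Of the 8 oligodendrocyte precursor markers, all of which had a negative log2 fold change (median -0.36), 2 were called. These were Bcas1, a marker of newly forming oligodendrocytes (3681, 4274 and 4942 in WT-Veh and 2446, 2779 and 2772 in KO-Mem mice, -0.68), and the lineage transcription factor Olig1 (5374, 5879 and 5476 in WT-Veh against 3837, 4436 and 4347 in KO-Mem mice, -0.41). Outside the lists, and chosen after their values were seen, were the oligodendrocyte connexin Gjb1 (-1.09), Padi2 (-1.12), Plxnb3 (-0.86), and Fa2h and Gal3st1, which hydroxylate and sulfate myelin glycolipids (-0.72 and -0.58). All 5 were called. In the KO-Veh mice the summed myelin markers stood at 81.3%, 85.7% and 81.1% of the WT-Veh mean, and in the WT-Mem mice at 86.3%, 82.7% and 96.7%. The median of the list was -0.27 in KO-Veh minus WT-Veh, -0.30 in KO-Mem minus KO-Veh and -0.17 in WT-Mem minus WT-Veh, comparisons that share mice with KO-M/WT-V. None of the 12 was called in any of them. These comparisons called only 5, 0 and 2 of all genes tested, so the lack of calls does not show that the list was unchanged there. KO-Veh 3, which had high cerebellar markers as described below, is in both comparisons that use KO-Veh mice. Its part in their medians was not tested.

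Some promoters of the myelin list hold matches to the motif of Myrf, the transcription factor that turns on myelin genes in maturing oligodendrocytes. The letters CTGGCAC or CTGGTAC, on either strand, stood in the 250 bases before a RefSeq start in 3 of the 10 list members with a promoter in the table used (Mog, Mag and Cnp) and in 861 (6.88%) of the 12517 tested genes with one. Mog, Mag and Cnp were all called. The Cnp window overlaps an annotated exon and is not shown. Windows of the Mog and Mag promoters around the match are given with the match in capitals, in the direction of the gene. They come from RefSeq on GRCm38.p6, Mog from chr17:37023430-37023526 (minus strand), where the match starts 83 bases before the start site and reads as the reverse complement, and Mag from chr7:30914923-30914976 (minus strand), which ends at a start site.
Mog: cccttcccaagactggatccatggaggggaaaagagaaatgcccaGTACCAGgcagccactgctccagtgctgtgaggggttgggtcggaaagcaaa
Mag: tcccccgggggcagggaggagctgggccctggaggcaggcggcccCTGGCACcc
A match is a description of these letters and does not show that a factor binds there.

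Genes of cholesterol synthesis formed the second group. Of the 25 tested, 23 had a negative log2 fold change, 19 had groups that did not overlap (31.1% of all genes tested), and 8 were called, all lower (2.05% of all genes tested). The list median was -0.44 and ranged from -0.57 to -0.33 over the fits that leave out 1 mouse. The difference was larger in KO-Mem 1 and 2, with the summed list at 64.5% and 68.6% of the WT-Veh mean, against 88% in KO-Mem 3 and from 97.9% to 103% in the WT-Veh mice. KO-Mem 3 was the KO-Mem mouse nearest to WT-Veh for all 8 called members.

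Idi1, the isomerase that makes dimethylallyl pyrophosphate, had 1826, 1991 and 1944 normalized counts in WT-Veh and 736, 937 and 1471 in KO-Mem mice, a change of -0.93 on the log2 scale (SE 0.20, adjusted p = 0.0403, limma). Hmgcs1, the synthase that supplies HMG-CoA, had 10455, 11222 and 9581 in WT-Veh against 5609.7, 6187 and 8682 in KO-Mem mice (-0.63, SE 0.14). Sqle, squalene epoxidase, had 2376, 2499 and 2454 in WT-Veh against 1401, 1562 and 2075 in KO-Mem mice (-0.56, SE 0.12). For all 3 genes KO-Mem 3 lay closest to the WT-Veh range and, as for every called gene, did not enter it.

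Srebf2, the transcription factor that drives this pathway, was among the called members, with 8402, 8638 and 8138 normalized counts in WT-Veh and 5509.5, 5729 and 7277 in KO-Mem mice (-0.45, SE 0.10, adjusted p = 0.0415, limma). The others were Msmo1 (-0.92), Nsdhl (-0.76), Cyp51 (-0.56) and Fdft1 (-0.40), enzymes between farnesyl pyrophosphate and cholesterol. The list median was -0.13 in KO-Veh minus WT-Veh, -0.30 in KO-Mem minus KO-Veh and -0.03 in WT-Mem minus WT-Veh, which share mice with KO-M/WT-V. The summed list stood at 94.3%, 95% and 84.1% of the WT-Veh mean in KO-Veh 1, 2 and 3. KO-Veh 3 had high cerebellar markers, as described below, and its part in these medians was not tested.

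Fatty acid genes chosen after their values were seen were also called lower. The stearoyl-CoA desaturase Scd1 had 5308, 5430.5 and 5892 normalized counts in WT-Veh and 3026, 3464 and 4129.7 in KO-Mem mice (-0.66). Its brain paralog Scd2 had 45747, 48221 and 47194 in WT-Veh against 31606, 35816 and 38771 in KO-Mem mice (-0.42), and the desaturase Fads1 and elongase Elovl5 had log2 fold changes of -0.45 and -0.52.

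Sterol-responsive promoters carry elements read by Srebf2. The letters TCACNCCAC on either strand stood in the 250 bases before a RefSeq start of 1 of the 17 cholesterol genes with a promoter in the table used, the called gene Hmgcs1, and in 156 (1.25%) of the 12517 tested genes. The Hmgcs1 window is chr13:119690169-119690267 of GRCm38.p6 (plus strand), with the match, 137 bases before the start site, in capitals.
Hmgcs1: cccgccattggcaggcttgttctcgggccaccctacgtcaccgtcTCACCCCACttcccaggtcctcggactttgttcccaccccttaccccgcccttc

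**Figure D3:**
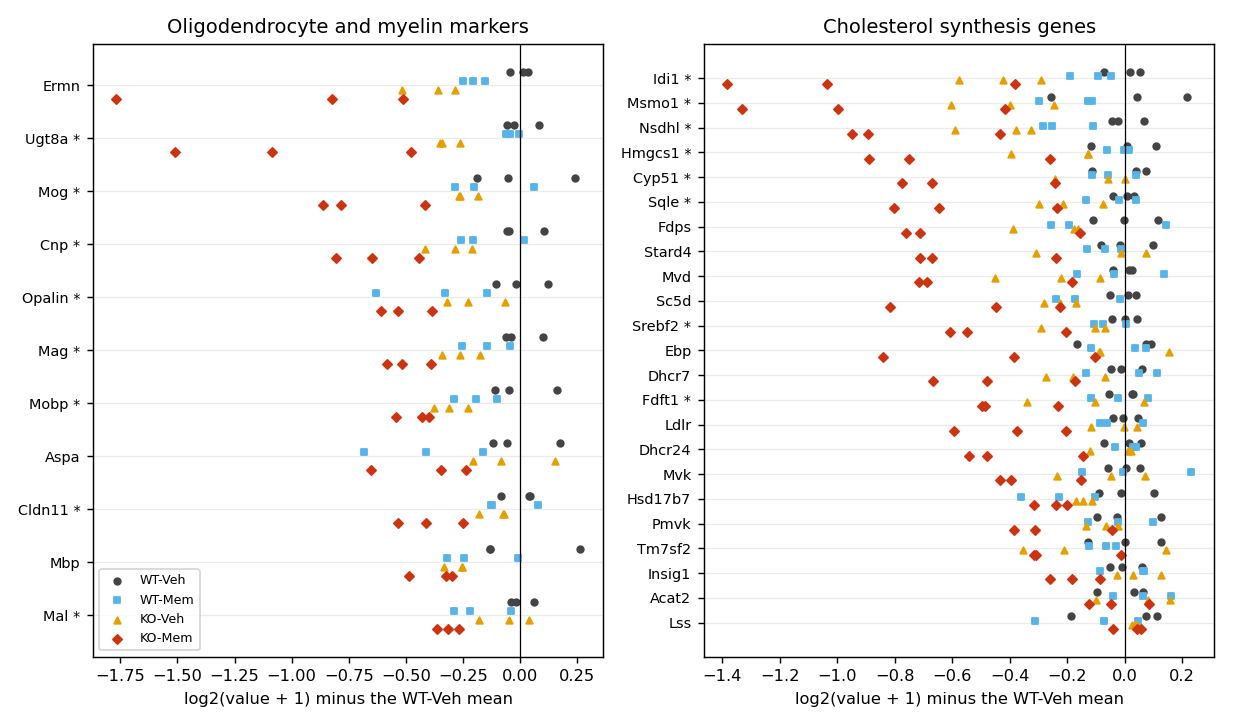
Oligodendrocyte and myelin markers (left) and cholesterol synthesis genes (right), per mouse, as log2(value + 1) minus the WT-Veh mean of the gene, ordered by the KO-Mem minus WT-Veh log2 fold change. Each point is 1 mouse and an asterisk marks a gene called in KO-M/WT-V transcripts (8 of the 11 myelin markers and 8 of the 23 cholesterol genes drawn). All KO-Mem diamonds lie to the left of the WT-Veh circles for the myelin markers. In the cholesterol genes the KO-Mem diamond nearest to 0 belongs to KO-Mem 3 for every called gene.

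Globin genes and a minority of the vessel markers were called lower in KO-Mem mice. Of 6 red blood cell markers, 4 were called, all globin genes, with a list median of -1.47. Hbb-bs had 6426, 8331 and 7169 normalized counts in WT-Veh and 1654, 2164 and 3970.2 in KO-Mem mice (-1.58, SE 0.25, adjusted p = 0.0243, limma). Hbb-bt (-2.04), Hba-a1 (-1.19) and Hba-a2 (-1.37) are near-identical copies within the beta and alpha families, so the split of reads between copies is uncertain. Globin RNA marks red blood cells in the tissue, and the other 2 members, Alas2 and Slc4a1, make and shape the same cells (adjusted p = 0.136 and 0.16, limma). The summed list was 25.8%, 34% and 57.7% of the WT-Veh mean in KO-Mem 1, 2 and 3, from 34.8% to 86.3% in KO-Veh mice and from 61.1% to 68.1% in WT-Mem mice. Ighm, an immunoglobulin heavy chain chosen after its values were seen, had 514, 524 and 718 in WT-Veh and 88.8, 122 and 261 in KO-Mem mice (-2.02).

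Among mural cell markers, which mark pericytes and smooth muscle, all 8 had a negative log2 fold change (median -0.50) and 3 were called. Rgs5, a pericyte marker, had 2406, 2876 and 2579 normalized counts in WT-Veh and 1259, 1481 and 1936 in KO-Mem mice (-0.77, SE 0.14, adjusted p = 0.0305, limma), and the others were the smooth muscle actin Acta2 (-0.72) and vitronectin, Vtn (-0.53). Of 11 endothelial markers 2 were called, the sialomucin Emcn (-0.94) and the receptor Tie1 (-0.72), and the list median was -0.33. Of 10 meningeal fibroblast markers 2 were called, Col3a1 at 495, 395 and 506 in WT-Veh against 131, 139 and 337 in KO-Mem mice (-1.34) and the growth factor Igf2 (-0.56). The part of vessel, blood and meningeal content in the other results was not tested.

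The matrix genes, with 74 tested, gave 10 calls lower and 1 higher and a median of -0.26. The basement membrane proteoglycan perlecan, Hspg2, had 1690.3, 1459.7 and 1228 normalized counts in WT-Veh and 601, 624 and 927 in KO-Mem mice (-1.04, SE 0.17, adjusted p = 0.0243, limma). The basement membrane collagen Col4a2 (-0.48), the small proteoglycan biglycan, Bgn (-0.82), the fibulin Fbln2 (-0.65), the membrane-type metalloproteinases Mmp15 (-0.68) and Mmp17 (-0.44), and the laminin-binding partner Cd151 (-0.46) were also called lower, besides Col3a1, Col9a3 and Vtn. The exception was Sparc, a collagen-binding glycoprotein, at 17084, 16479 and 20086 in WT-Veh and 27721, 27833 and 21423 in KO-Mem mice (0.52, SE 0.11). Its KO-Mem 3 value lay just above the highest WT-Veh value.

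Counts of other non-neuronal markers stand beside all genes tested, of which 3.37% were called and 25.9% had an unadjusted p under 0.05. None of the 12 microglia markers was called, although 11 had a negative log2 fold change (median -0.35) and 8 had an unadjusted p under 0.05. Csf1r, the growth factor receptor of microglia, had 2702, 2816 and 3368 in WT-Veh and 2538, 2091 and 2196 in KO-Mem mice (adjusted p = 0.0643, limma). Of 10 astrocyte markers (median -0.14), Aqp4 and S100b (2502, 2898 and 3289.7 in WT-Veh against 1665, 1870.1 and 2148 in KO-Mem mice, -0.61) were called. The inward rectifier Kcnj10, which clears potassium in glia and was chosen after its values were seen, was also called (-0.59). The choroid plexus (median -0.37) and ependymal (-0.41) lists had 0 calls by limma of 10 and 8, with 4 and 3 at an unadjusted p under 0.05. The choroid plexus median was -0.10 without KO-Mem 1 and -0.21 without WT-Veh 3, and the summed choroid list was 52.9%, 76% and 101% of the WT-Veh mean in KO-Mem 1, 2 and 3. The 8 olfactory bulb and neuroblast markers were all higher in KO-Mem mice by their mean (median 0.38, and 0.24 without WT-Veh 1), with 0 called, 4 at an unadjusted p under 0.05, and Dcx, the microtubule protein of migrating neurons, nearest to a call (1500.1, 1284 and 1428 in WT-Veh against 2034, 1667 and 1861 in KO-Mem mice, adjusted p = 0.0502, limma).

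Neuronal markers stayed near the median of all genes. None of the 10 glutamatergic neuron markers (median 0.02) and none of the 10 striatal markers (-0.06) was called, with 2 and 3 at an unadjusted p under 0.05, and 1 of 11 GABAergic markers was called (list median 0.07). That one was Pvalb, the calcium buffer of fast-spiking interneurons, at 654, 721 and 924 in WT-Veh and 464, 497 and 529 in KO-Mem mice (-0.61, SE 0.13, adjusted p = 0.0403, limma). The highest Pvalb value, 924, was that of WT-Veh 3. Pvalb also stands on the list of 9 cerebellar neuron markers tested, of which no other was called (median -0.11, and -0.01 without WT-Veh 3). Of 9 hypothalamic, 8 thalamic and 2 pituitary markers tested none was called by limma (medians 0.07, -0.05 and -0.64, with 1, 0 and 1 at an unadjusted p under 0.05). Perineuronal nets surround fast-spiking interneurons. Of 18 net and proteoglycan genes 2 were called, beside 3.37% of all genes tested. They were the link protein Hapln4 (2634, 2666 and 2452 in WT-Veh against 1465, 1833 and 1820.3 in KO-Mem mice, -0.61) and neurocan, Ncan (-0.32). The fast potassium channel Kcnc1 (-0.38), the sodium channel subunit Scn4b (-0.41) and the neurofilaments Nefm (-0.62) and Nefh (-0.57), all chosen after their values were seen, were called lower as well. Of the 11 GABAergic markers 7 had a positive log2 fold change, and a change of fast-spiking interneurons as a cell type was not tested. Nefm had 10260, 10249 and 10079 normalized counts in WT-Veh and 5685, 6855 and 7535 in KO-Mem mice.

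**Figure D4:**
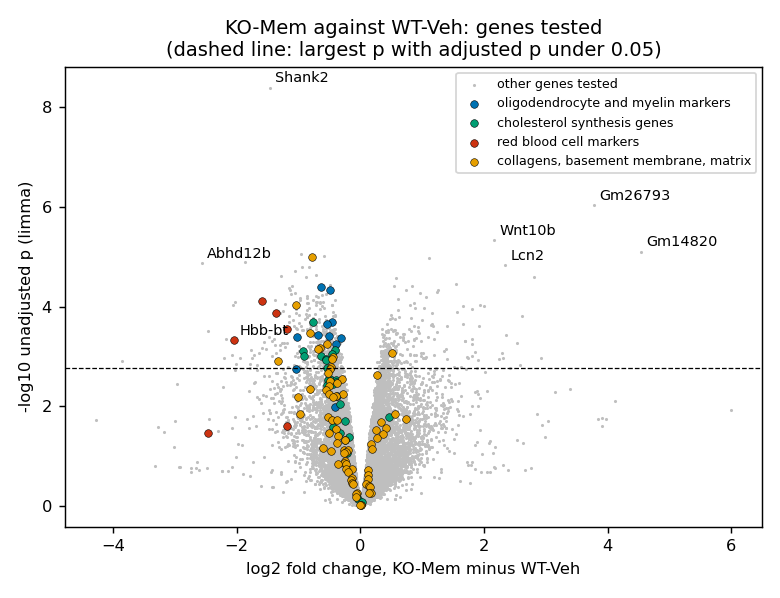
Log2 fold change in KO-M/WT-V transcripts (horizontal axis) against -log10 of the unadjusted p of limma (vertical axis), with 1 point per gene tested (17662 genes). Colours mark 4 lists, and points above the dashed line are the 595 called genes. The myelin, cholesterol and red blood cell lists lie almost wholly to the left of 0, with 9, 8 and 4 members above the line.

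Synaptic gene lists gave 2 calls, those of Shank2 and Gabrd, beside a called share of 3.37% over all genes tested. Of 20 Shank and partner scaffold genes only Shank2 was called, and of 7 NMDA receptor subunits (median 0.06) and 19 AMPA receptor and auxiliary subunit genes (0.00) none was called by limma, with 2 and 8 at an unadjusted p under 0.05. The NMDA receptor subunit gene Grin2c came nearest, at 1857, 1689 and 1864 normalized counts in WT-Veh and 1219, 1406 and 1535 in KO-Mem mice (-0.38, SE 0.10, adjusted p = 0.0556, limma). The obligatory subunit gene Grin1, at 22317, 21010 and 20159 in WT-Veh against 25268, 23516 and 22420 in KO-Mem mice, had a change of 0.17 on the log2 scale (adjusted p = 0.168). Of 12 GABA-A receptor subunits Gabrd, which encodes the extrasynaptic delta subunit, was called, at 1973, 1976 and 1837 in WT-Veh against 1356, 1428 and 1549 in KO-Mem mice (-0.42, SE 0.08, adjusted p = 0.0317, limma). None of 12 serotonin receptor genes was called, with 3 at an unadjusted p under 0.05, and Htr2c was nearest (2188, 2352 and 1864 in WT-Veh against 2905, 2888 and 2603 in KO-Mem mice, adjusted p = 0.0504).

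Immediate early genes, which report recent neuronal activity, were mostly lower in KO-Mem than in WT-Veh mice by their means (22 of 26, median -0.26), and 1 was called, Ier5 (1462, 1784 and 1709 in WT-Veh against 797, 1016 and 1312 in KO-Mem mice, -0.69, adjusted p = 0.0454, limma). The median was -0.08 without KO-Mem 1, -0.15 without WT-Veh 3 and -0.41 without WT-Veh 1, and the spread within groups was wide. Arc had 2598, 6948 and 11896 normalized counts in WT-Veh and 1310.1, 2528 and 4874 in KO-Mem mice, and Fos 594, 961 and 1332 in WT-Veh against 447, 619 and 913 in KO-Mem mice, so the groups overlapped for both genes. Of 34 MAP kinase pathway genes 3 were called, all lower: Mapk11, the beta form of the stress kinase p38 (1447, 1576 and 1583 in WT-Veh against 735, 892 and 1116 in KO-Mem mice, -0.77), Map2k2, a kinase upstream of ERK (-0.39), and Mapk7, which encodes ERK5 (-0.37). The median of that list was 0.01.

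Chaperone genes gave 4 calls, all lower. Cryab, a small heat shock protein of glia, had 2083, 2455 and 2644 normalized counts in WT-Veh and 924, 1076 and 1505 in KO-Mem mice (-1.06, SE 0.16, adjusted p = 0.0243, limma). Hsph1 had 8236, 9468 and 8040 in WT-Veh against 3486, 4693 and 6677 in KO-Mem mice (-0.84), and Calr, the calcium-binding chaperone of the endoplasmic reticulum, had 10190, 11451 and 11420 in WT-Veh against 4969.8, 5864 and 8292 in KO-Mem mice (-0.82). The fourth was Dnajb2 (-0.46). The medians of the 25 cytosolic heat shock genes and the 28 genes of the endoplasmic reticulum were -0.22 and -0.20.

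Of 24 glucocorticoid and stress responsive genes 2 were called higher, Lcn2 and Fkbp5, and 0 lower. Fkbp5, a co-chaperone of the glucocorticoid receptor that its ligand induces, had 3313, 2268 and 1790 normalized counts in KO-Mem mice, beside 1422, 1578 and 1769.7 for KO-Veh, 1551, 1280 and 1469 for WT-Mem and 1147, 888 and 1196 for WT-Veh mice. The lowest KO-Mem value, that of KO-Mem 3, exceeded the highest WT-Veh value, as for every gene called higher. The change of Fkbp5 was 1.15 on the log2 scale (SE 0.19, adjusted p = 0.0272, limma). None of 19 clock genes was called (median 0.12, 0.07 without KO-Mem 1 and 0.08 without WT-Veh 2), with 6 at an unadjusted p under 0.05. The RNA-binding proteins known to be induced by cold, Cirbp (1427, 1193 and 1427 in WT-Veh against 2861, 2315 and 1968 in KO-Mem mice, 0.81) and Rbm3 (2352, 1626 and 2279 in WT-Veh against 4176, 3808 and 3312 in KO-Mem mice, 0.86), were called higher and were chosen after their values were seen.

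Chromatin and splicing genes had small positive medians. Of 42 histone methyltransferase and demethylase genes 3 were called higher and 1 lower (median 0.13, and 0.07 without KO-Mem 1), of 61 remodeler, acetylase and deacetylase genes 1 was called higher (0.12, and 0.08 without KO-Mem 1), and of 82 spliceosome, SR and hnRNP genes 2 were called higher and 1 lower (0.06). Ehmt2, a methyltransferase of histone H3, had 6863, 6670.4 and 6027 normalized counts in WT-Veh and 10563, 9008 and 7622 in KO-Mem mice (0.46, SE 0.11, adjusted p = 0.0479, limma). The others higher were Suv39h1, a methyltransferase of heterochromatin (0.48), Kmt2e (0.44), the remodeler subunit Actr8 (0.44), the core splicing factor Sf3b1 (8777, 8098 and 8031 in WT-Veh against 11987, 11032 and 9628 in KO-Mem mice, 0.39) and the splicing regulator Ptbp2 (0.45). Setd7 (7032, 7108 and 7167 in WT-Veh against 3739, 4949 and 5593 in KO-Mem mice, -0.60) and Hnrnpc (-0.51) were lower. Among the treated mutants Ehmt2 and Suv39h1 were highest in KO-Mem 1 and lowest in KO-Mem 3.

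Ribosomal and nuclear-encoded respiratory genes gave 3 calls, and mitochondrially encoded genes 2 of 13. Of 80 cytosolic ribosomal protein genes Rpl5 was called higher (0.44) and Rpl12 lower (-0.61), with a median of -0.05, and of 79 mitochondrial ribosomal protein genes (median -0.09) Mrps25 was called lower (-0.60). Ribosomal protein genes have many processed copies, so the share of reads assigned to each is uncertain. None of the 76 nuclear-encoded respiratory chain genes was called (median -0.11, 24 at an unadjusted p under 0.05). Of the 13 mitochondrially encoded genes 12 had a negative log2 fold change (median -0.33, and -0.19 without WT-Veh 3) and 8 an unadjusted p under 0.05, and mt-Atp6 and mt-Nd2 were called, at 29913, 21686 and 36114 in WT-Veh against 11708, 16904 and 19569 in KO-Mem mice (-0.87) and at 51990, 55889 and 72538 in WT-Veh against 35930, 39342 and 43793 in KO-Mem mice (-0.59). WT-Veh 3 was the highest mouse for both genes and the summed list stood at 116% of the WT-Veh mean there, against 93.3% and 90.4% in WT-Veh 1 and 2.

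**Figure D5:**
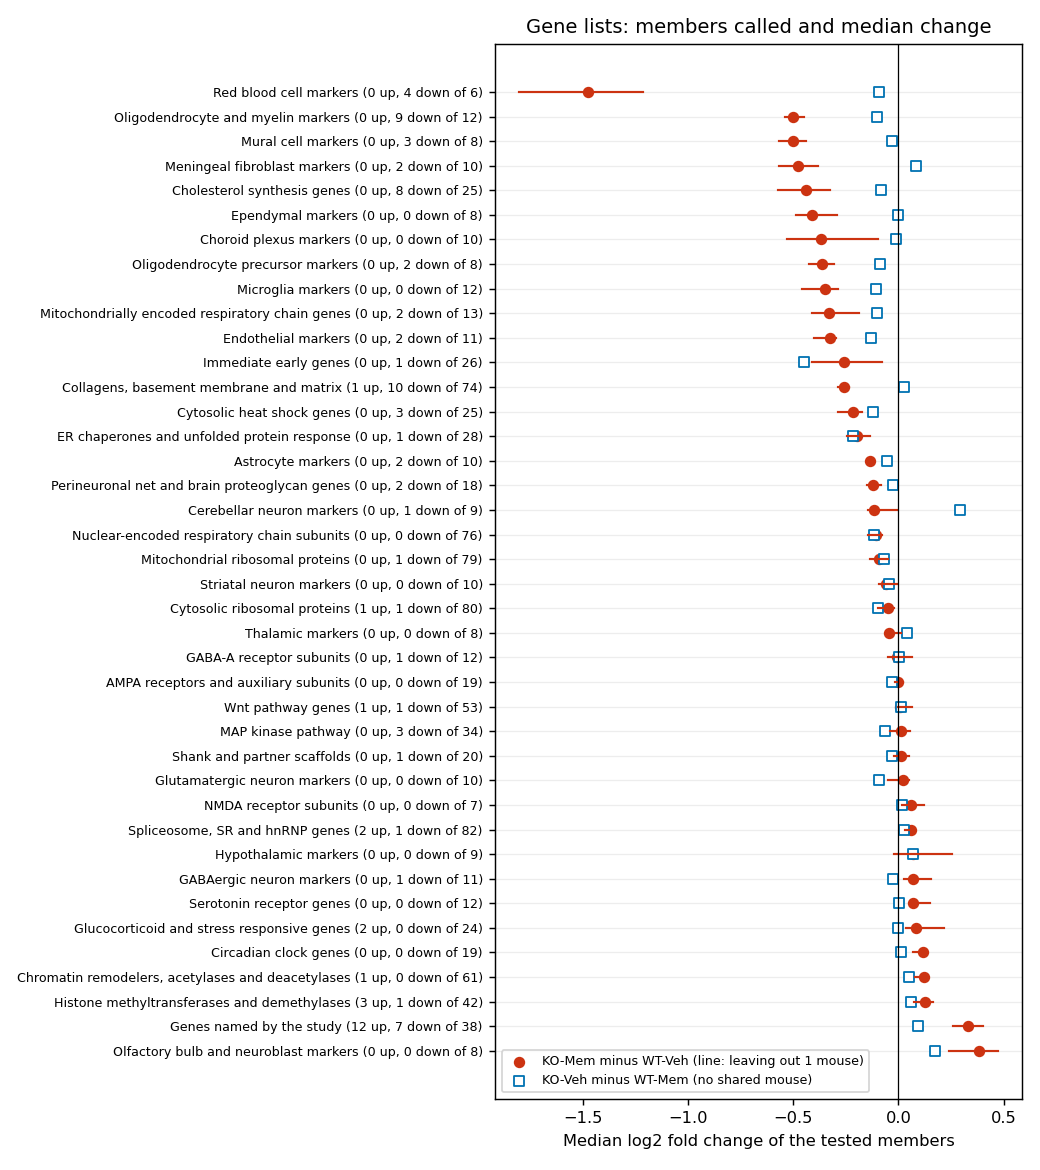
Median log2 fold change of the tested members of each gene list with at least 5 tested, for KO-Mem minus WT-Veh (filled circles, with a line from the lowest to the highest median over the 6 fits that leave out 1 mouse) and for KO-Veh minus WT-Mem (open squares, mice that share no animal with the former). The numbers beside each name are the members called higher and lower of those tested. Red blood cell markers lie farthest to the left (-1.47), followed by myelin (-0.50) and mural cell markers (-0.50).

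A list of 38 genes taken from the study's text, which leaves out Shank2, Shank3 and some ribosomal protein genes named there, gave 12 calls higher and 7 lower. It was chosen by the study on these same samples, so its counts are no independent evidence. Beyond the genes described so far it holds the complement gene C4b (567, 565 and 605 in WT-Veh and 1774, 1406 and 862 in KO-Mem mice, 1.16, SE 0.21, adjusted p = 0.0305, limma), the astrocyte enzyme gene Etnppl (822, 597 and 901 in WT-Veh against 1811, 1624 and 1195 in KO-Mem mice, 1.00) and Zfp46 (1765, 1522 and 1691 in WT-Veh against 5061, 3703 and 2368 in KO-Mem mice). For all 3 genes KO-Mem 1 was highest and KO-Mem 3 lowest among the treated mutants. Smaller increases were called for Phka2 (0.79), Eml2 (0.61), Miip (0.59), the ephrin Efnb2 (0.43) and the kinase Plk2 (0.34), and Tomm40l was lower (-0.72). Htr2a, Muc1 and Sf3b1 were also measured by RT-qPCR in the study, which described tendencies to increase in other comparisons than KO-M/WT-V. These were KO-Veh relative to WT-Veh for Htr2a, and KO-Mem relative to KO-Veh for Muc1 and Sf3b1. In KO-M/WT-V transcripts Sf3b1 was called, whereas Htr2a and Muc1 were not. Htr2a had 849, 746 and 735 in WT-Veh against 839, 1007 and 1146 in KO-Mem mice (adjusted p = 0.105, limma). Muc1 had 48.4, 35.9 and 73.3 in WT-Veh against 241, 86.8 and 80.8 in KO-Mem mice (adjusted p = 0.0984, limma). For Muc1, KO-Mem 1 had a value far above those of KO-Mem 2 and 3.

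Near Shank2 the share of called genes was larger than elsewhere. Within 20 Mb of the gene on chromosome 7, 18 of 284 tested genes (6.34%) were called, 8 higher and 10 lower, against 576 of 17377 (3.31%) outside this window. The methods give a line moved from a 129 strain onto C57BL/6N, and the part of flanking sequence in these differences was not tested. Besides Gm26793, Ccnd1, Deaf1, Cd151 and Igf2, these included Bc1, a brain-specific noncoding RNA copied by RNA polymerase III, at 135, 137 and 205 in KO-Mem, 522, 478 and 259 in WT-Veh and 133, 138 and 183 in KO-Veh mice (-1.36, SE 0.26, adjusted p = 0.0319, limma). Bc1 is not polyadenylated like an mRNA and the libraries were made for mRNA, so its level is uncertain. The endolysosomal channel Tpcn2 had 161, 178 and 153 in WT-Veh against 93.3, 88.8 and 87.2 in KO-Mem mice (-0.86), and the integrin subunit gene Itgad 17.3, 19 and 28.6 in WT-Veh against 112, 93.3 and 42.6 in KO-Mem mice (1.81). The other 10 were Taldo1 (-0.53), Tspan4 (0.57), Uros (-0.56), Plekha1 (0.44), Ppp2r2d (0.39), Cfap46 (0.78), Pgghg (-0.76), B230206H07Rik (-1.06), Gm21984 (-0.92) and Gm44850 (2.59).

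The other comparisons place these differences beside those of genotype and of treatment alone. KO-Mem against KO-Veh gave 0 calls in limma (1573 genes, 8.88%, at an unadjusted p under 0.05, smallest adjusted p 0.554), KO-Veh against WT-Veh gave 5 (0.0283%, with 14.4% at an unadjusted p under 0.05) and WT-Mem against WT-Veh gave 2 (0.0114%, with 3.97%). Over the 233 genes called higher in KO-M/WT-V transcripts, the median log2 fold change of 0.57 stood beside 0.32 in KO-Veh minus WT-Veh, 0.25 in KO-Mem minus KO-Veh and 0.13 in WT-Mem minus WT-Veh. Over the 362 called lower, -0.63 stood beside -0.33, -0.30 and -0.16. These comparisons share mice with KO-M/WT-V, and the genes were chosen in it, so the medians are a description. The summed cerebellar neuron markers stood at 10548 normalized counts in KO-Veh 3, against 6063.5 and 6399.7 in the other KO-Veh mice. KO-Veh 3 is in both comparisons that use KO-Veh mice, and its part in their calls and medians was not tested. The interaction of genotype and treatment over 12 mice gave 0 calls in limma, with 840 genes (4.76%) at an unadjusted p under 0.05 and a smallest adjusted p of 0.947.

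KO-Veh and WT-Mem mice had no part in KO-M/WT-V transcripts, and comparing them (KO-Veh minus WT-Mem) sets the same genotypes against each other with memantine on the opposite side. There 4 of 17648 genes (0.0227%) were called. These were Shank2, Gm26793, Bc1 and Itpr3, an inositol trisphosphate receptor gene outside the naming rule, with 1577 (8.94%) at an unadjusted p under 0.05. Itpr3 was not called in KO-M/WT-V transcripts (0.26, adjusted p = 0.306, limma). It had 359, 301 and 243 normalized counts in KO-Mem, 232, 268 and 245 in WT-Veh and 513, 404 and 504 in KO-Veh mice. Of the 230 genes called higher in KO-M/WT-V transcripts and tested in these other mice, 217 (94.3%) had the same direction and 89 (38.7%) had it with an unadjusted p under 0.05. Of the 361 called lower, 320 (88.6%) had the same direction and 139 (38.5%) had it with an unadjusted p under 0.05, and 0 of either set had the opposite direction at that level. Over all 17399 genes tested in both, 68.1% had the same direction and 7.94% had it with an unadjusted p under 0.05. The 2 comparisons share the genotype contrast and the authors' normalization over all 12 mice.

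One KO-Veh mouse stood apart from these others. KO-Veh 3 had 745 normalized counts of Cbln3 and 380 of Pcp2, against at most 19.8 and 19.5 in the other 5 mice of these groups. Fat2, like these a marker of the cerebellum, stood at 950 in KO-Veh 3 and at most 59.8 in the other 5, and the part of this tissue in the shares was not tested beyond the values without that mouse. Without KO-Veh 3, 206 of 229 genes called higher (90%) and 295 of 361 called lower (81.7%) had the same direction, and 40 (17.5%) and 78 (21.6%) had it with an unadjusted p under 0.05, beside 64.5% and 3.92% over all genes tested in both. Over the 6 fits that leave out 1 of these mice, the shares with an unadjusted p under 0.05 ranged from 17.5% to 47.8% of the genes called higher (24.8% without KO-Veh 1) and from 21.6% to 46.5% of those called lower (25% without WT-Mem 1), beside 3.92% to 10.1% of all genes.

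The median log2 fold change in these other mice was 0.20 over the genes called higher and -0.17 over those called lower. Genes chosen for passing a threshold have sizes inflated by that choice, so nothing is read from the smaller sizes here. Ccnd1 had -0.73 (unadjusted p = 2.24e-05, limma) beside -0.95, and Wnt10b 0.94 (unadjusted p = 0.00198, limma) beside 2.17. The myelin list had a median of -0.10, with Ugt8a at -0.28 (unadjusted p = 0.000348, limma) and Opalin at 0.16. Of its 12 members 9 had the same direction, 2 of them with an unadjusted p under 0.05. At that level 1 member, not a called gene, had the opposite direction. The cholesterol list had a median of -0.08, with Idi1 at -0.32 (unadjusted p = 0.00305, limma). Of its 25 members 22 had the same direction, 4 of them with an unadjusted p under 0.05. Without WT-Mem 3 the myelin median was -0.03, with 6 of 12 members in the same direction, and without WT-Mem 2 it was -0.16. The cholesterol median was -0.01 without KO-Veh 3. The red blood cell list had -0.09 beside -1.47, between -0.39 without KO-Veh 2 and 0.26 without KO-Veh 3, and the immediate early genes had -0.45 beside -0.26, between -0.69 without KO-Veh 1 and -0.24 without KO-Veh 3. Of the 15 genes of each direction with the smallest p, Lcn2 at -0.48, Pip5k1a at -0.06 and Prr5l at 0.12 had the opposite sign there. So did other called genes, among them Mal at 0.12 and Cd151 at 0.10.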

How the data were processed

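RNA from the brains of 12 mice, 3 per group and not pooled, was sequenced from mRNA libraries. The authors estimated transcript abundances with Salmon 1.1.0 on GRCm38, summed them to genes with tximport, and deposited a signal value per gene and mouse: estimated counts divided by normalization factors that DESeq2 set across the 12 mice, called normalized counts here. The annotation used and the reads per mouse are not given in the sources used here, and whole reads could not be recovered, so no count model was fitted. Groups and replicate numbers came from the sample labels.

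The 6 KO-Mem and WT-Veh mice were fitted with limma 3.58.1 (R 4.3.3; lmFit, then eBayes with a variance trend) on log2(value + 1), for genes with a mean of at least 10, and a Benjamini-Hochberg adjusted p under 0.05 was a call. Fold changes of low genes are understated on this scale, and the SE is the moderated one. The other comparisons were fitted alike on their own mice, and the interaction on all 12. Alternatives were other pseudocounts, floors and scalings, no variance trend, 12 mice in one fit, a replicate block, each mouse left out and, chosen after seeing the data, KO-Mem 1 and WT-Veh 3 left out together. The test was tested on simulated data. Separate litters or cages are not given, so p-values measure the spread between these mice.

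Of the genes, 19295 matched GENCODE M21, which gave symbols and positions. Named genes were Shank2, the 15 of each direction with the smallest p, the called members of 42 lists (otherwise the 2 with the smallest p), the 3 genes of the RT-qPCR and the called genes within 20 Mb of Shank2. Genes outside this rule are given in the text as such or as chosen after their values were seen. Members and lists were chosen with earlier results of these data known. Some list members enter the counts, sums and medians of their lists but are not reported here one by one.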

Additional observations from a re-analysis of the deposited data

How the results depend on the processing

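The 595 calls in KO-M/WT-V transcripts (233 higher, 362 lower) stayed within 1.5 times under pseudocounts of 0.5 and 5, a floor of 50, median-ratio rescaling and quantile normalization, with 582 to 653 calls. They moved to 365 (133 higher, 232 lower) with no floor, to 7 (4 and 3) with no variance trend, to 2067 (927 and 1140) with 12 mice in one fit, and to 999 (414 and 585) with the replicate number as a block. Leaving out 1 mouse gave 1 to 2490 calls (0 to 1125 higher, 1 to 1365 lower), and leaving out KO-Mem 1 and WT-Veh 3 together gave 2 (1 and 1). For the wider and narrower results the cause was not tested, except that the fits without a mouse hold fewer samples. The 4 calls of KO-Veh against WT-Mem (2 higher, 2 lower) became 0 (0 and 0) with no variance trend, with 1411 genes at an unadjusted p under 0.05, and 2 (0 higher) with the replicate block. With a floor of 50, 1 was called higher, and leaving out 1 mouse gave 1 to 5 calls (0 to 2 higher, 1 to 3 lower). Only 34 of the named genes were recomputed, and no value of these changed sign under any alternative. For a called gene, the lack of overlap between groups already fixes the sign when 1 mouse is left out.

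The deviations of mice with the same replicate number had correlations of 0.0461, 0.0038 and -0.0124 for KO-Mem and WT-Veh. With 3 mice per group these cannot exclude a litter or batch shared by number, and the labels name none. The numbers are therefore used only to name mice, and the block result is given only here. With 3 mice per group, leaving out any mouse except KO-Mem 3 removed most calls, and without KO-Mem 3, 594 of the 595 stayed called.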
